A study of Mus musculus with 6 samples.

Results

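The transcripts described here are those of 8 regulators of G protein signalling, the RGS genes Rgs1, Rgs2, Rgs3, Rgs10, Rgs14, Rgs16, Rgs18 and Rgs19. They were taken by gene name, with every non-control probe of each, which gave 14 of the 39429 probes of the array and 8 of the 16413 genes tested. The cells were γδ T cells from the spleen of Eomes-IRES-GFP mice on a C57BL6 background, in which green fluorescent protein (GFP) reports the T-box transcription factor Eomes, so both groups carry the reporter allele. Per the labels, 3 independent sorts were made, each from 4 to 6 pooled spleens, of mice aged 9, 9.5 and 7.5 weeks for sorts 1, 2 and 3. Cells bearing B220, CD4 or CD8β were depleted, and CD3+ TCRγδ+ TCRβ- cells were then sorted as GFP+ (Eomes-positive) or GFP- (Eomes-negative). Each sort gave 1 array per group, with 9 ng of RNA in sorts 1 and 2 and 4 ng in sort 3, amplified once.

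RGS proteins bind the active, GTP-bound α subunit of heterotrimeric G proteins and speed up GTP hydrolysis, which ends the signal from a G protein-coupled receptor. In lymphocytes they are best known for limiting the response to chemokines, sphingosine 1-phosphate and other ligands whose receptors act through Gi. Rgs1, Rgs2, Rgs3, Rgs16 and Rgs18 belong to the R4 subfamily, Rgs10 and Rgs14 to the R12 subfamily and Rgs19 to the RZ subfamily.

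Levels are given on the log2 scale after the 75th percentile of each array was subtracted, so 0 is the level that 75% of the array's probes lie below. Differences are Eomes-positive minus Eomes-negative on that log2 scale, and errors of group means are SD over 3 arrays. A gene is called where its limma p, adjusted by Benjamini-Hochberg over all 16413 genes, was below 0.05. All 8 genes were well above background on all 6 arrays.

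The Rgs3 gene carried 4 probes, which lie at different places along it, and its results differ between them, so a 30-base stretch (the first bases of each 60-base probe, 5′ to 3′) identifies each. All 4 lie on the plus strand of chromosome 4 in the mm9 build of the scanner files, whose description assigns them to transcript variant 1, to an Ensembl transcript, or to transcript variant 2.
Rgs3 variant 1 probe, chr4:62320777-62320836: ggagctggaattatacagaccttctgagaa
Rgs3 Ensembl transcript probe, chr4:62358833-62358892: ttaggtttcctcaaactttcagtcttgagg
Rgs3 variant 2 probe, upstream, chr4:62363208-62363267: taccctcgcttcctccgctctgacctctac
Rgs3 variant 2 probe, downstream, chr4:62363993-62364052: gccctctggccacacagaaatgagtgctga
The variant 1 probe starts 43.2 kb upstream of the last variant 2 probe. Exon annotation of that build was not used here.

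The remaining members that differed most were each read by 1 probe, shown by its first 30 bases in the same way. Capitals are not used in these stretches, since no part of them was singled out.
Rgs10, chr7:135517256-135517315, minus strand: gaccttccctctggatatgtgtattttatt
Rgs16, chr1:155592244-155592303, plus strand: gagagaactcttttaagtataatattgtgt
Rgs18, chr1:146600137-146600196, minus strand: tgcttgaacgatgaagatggcatactttca

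The arrays resembled one another in depth of detection, with 47.7% to 56.6% of probes well above background, and raw 75th percentiles of 1581 to 1684 intensity units in sorts 1 and 2 and of 534 and 549 in sort 3. Eomes itself was at 5.31, 4.96 and 4.48 in the Eomes-positive arrays of sorts 1 to 3 and at 0.72, 0.88 and -1.14 in the Eomes-negative ones, as the sort gate sets. The T cell receptor complex genes Cd3d, Cd3e and Cd3g were measured on every array, and Cd3d lay between 6.95 and 7.15. Levels of a marker list were summed on the linear scale, where 1 is the 75th percentile. Sort 2 stood apart by the myeloid list, with sums of 307 and 314 against 17.0 to 49.7 in sorts 1 and 3, and red cell sums ranged from 23.4 to 280. Slide 1 held the first 3 arrays (both of sort 1 and the Eomes-negative array of sort 2), slide 2 the Eomes-positive array of sort 2 alone, and slide 3 both arrays of sort 3. A difference within slide 3 is thus that of sort 3 given again. Within slide 1 it reuses arrays of sorts 1 and 2, so slide values add no arrays to the sort differences.

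Of the 8 members, 0 were called higher and 1, Rgs10, was called lower, whereas limma called 2.77% of all 16413 genes in either direction, 1.2% higher and 1.57% lower. At an unadjusted limma p below 0.05 the fit had 4 members, Rgs3, Rgs10, Rgs16 and Rgs18, beside 12.2% of all genes. With the sort as a block, which removes differences between sorts, limma called 3 members, Rgs3 and Rgs16 higher and Rgs10 lower, beside 7.98% of all genes, 3.66% higher and 4.33% lower. Groups did not overlap in 5 of the 8 members, Rgs3, Rgs10, Rgs16, Rgs18 and Rgs19, beside 18.2% of all genes tested. The median difference of the 8 was -0.17, and that of all genes was -0.01. In bulk RNA from sorted cells, fewer cells that hold a transcript and less transcript per cell cannot be told apart.

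**Figure D1:**
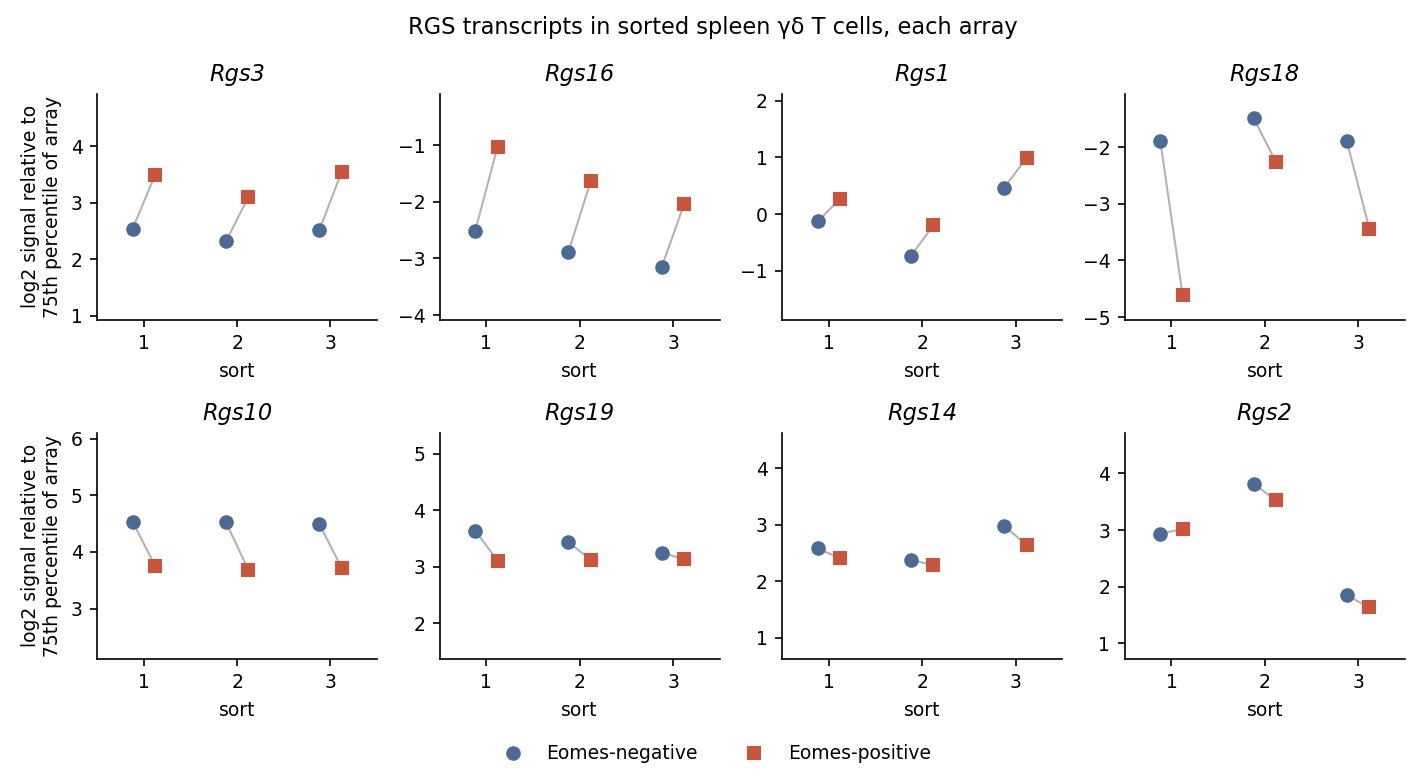
Level of each of the 8 RGS transcripts on each array (log2 signal over the array's 75th percentile, each y axis spanning 4 log2 units), with a grey line joining the Eomes-negative (circle) and Eomes-positive (square) array of a sort. Rgs3 and Rgs16 are higher and Rgs10 and Rgs18 lower in the Eomes-positive array of all 3 sorts, while Rgs2 and Rgs1 vary more between sorts than between groups.

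Rgs10, a small RGS protein whose catalytic domain makes up most of its length and which acts on the Gi family, was the member called in the fit by group. Its Eomes-negative levels were 4.54, 4.52 and 4.49 in sorts 1 to 3, and its Eomes-positive levels were 3.75, 3.68 and 3.72. All 3 Eomes-positive arrays lay below all 3 Eomes-negative arrays, and within a group the arrays lay close together (4.52 ± 0.02 against 3.72 ± 0.04, SD, n = 3 each). The difference of -0.80 (SE 0.12, 95% interval -1.10 to -0.50) is 1.74-fold lower, with a limma adjusted p of 0.0335, and 0.0207 with the sort as a block. It was nearly the same in each sort, at -0.78, -0.84 and -0.77. On the same arrays it was -0.78 within slide 1, and slide 3 holds sort 3 alone (-0.77). The call was lost with the slide as a block (limma adjusted p = 0.0820), with median scaling of the arrays (-0.70, adjusted p = 0.268) and whenever any array or sort was left out (limma adjusted p from 0.111 to 0.426, at differences from -0.81 to -0.78).

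Markers of other lymphocytes moved with the groups in the same direction. The summed level of the B cell list was 14.8, 18.2 and 17.5 in the Eomes-negative arrays and 7.27, 11.5 and 9.87 in the Eomes-positive ones, with 0 of 7 genes called by limma and 1 at an unadjusted p below 0.05. The αβ T cell list summed to 15.2, 11.7 and 12.6 against 6.45, 6.20 and 4.97, with 1 of 5 genes called, Cd8b1, which was lower. The part of these cells in the Rgs10 difference was not tested.

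Rexo2, Shld1 and Agpat5 had the 3 profiles nearest to that of Rgs10 among 10559 genes measured on all 6 arrays, by the root mean square distance of the 6 values after each gene's mean was subtracted (0.068, 0.072 and 0.087). Their differences were -0.87, -0.90 and -0.66. Since these genes were picked for likeness to Rgs10, a called gene, such differences follow from the choice, and no test bears on them. The spread of Rgs10 itself on this measure was 0.399.

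Rgs3, an R4 member that acts on Gi and Gq α subunits and is made as several isoforms, was higher in all 3 Eomes-positive arrays. Its brightest probe, the downstream probe of variant 2, read 2.54, 2.31 and 2.51 in the Eomes-negative arrays of sorts 1 to 3 and 3.48, 3.10 and 3.54 in the Eomes-positive ones. The groups did not overlap, and each sort had the Eomes-positive array higher, by 0.94, 0.79 and 1.04. The difference of 0.92 (SE 0.18, 95% interval 0.49 to 1.36), 1.89-fold, missed the threshold in the fit by group (limma adjusted p = 0.0650) and passed it with the sort as a block (0.0204), a call lost without any 1 sort (0.0784 to 0.115). Within slide 1 it was 1.06 and within slide 3 it was 1.04.

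The variant 1 probe of Rgs3 differed by more. It read 1.88, 1.66 and 1.75 in the Eomes-negative arrays and 3.58, 3.30 and 3.61 in the Eomes-positive ones. The 2 groups were separated by 1.42 log2 units, beyond the spread within either group. In a limma fit over the 21131 probes measured on at least 3 arrays, of which 2.41% were called, its difference was 1.73 (SE 0.16, 95% interval 1.34 to 2.13, 3.33-fold, adjusted p = 0.00781). That call held in the block fits, for the sort (limma adjusted p = 0.00790) and for the slide (0.0230), under every other scaling tried and without any 1 array, where the limma adjusted p ran up to 0.0499, but not without a whole sort (0.0931 to 0.189).

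The other Rgs3 probes gave smaller differences. The upstream variant 2 probe read 1.02, 0.83 and 1.60 in the Eomes-negative arrays and 2.01, 1.72 and 2.06 in the Eomes-positive ones, a difference of 0.78 (limma adjusted p = 0.262). The Ensembl transcript probe was well above background on 4 arrays only, with a difference of 0.62 (limma adjusted p = 0.969), and in sort 3 it read -4.44 and -4.48. Averaged over sorts the 4 probes thus pointed the same way, and 1 of them was called.

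Within an array, the log2 ratio of the variant 1 probe to the downstream variant 2 probe was -0.66, -0.66 and -0.76 in the Eomes-negative arrays and 0.09, 0.20 and 0.07 in the Eomes-positive ones. The ratio was higher in the Eomes-positive array of every sort, by 0.76, 0.85 and 0.83, and the groups did not overlap. The shift of 0.81 in this log2 ratio had an exact permutation p of 0.1, two-sided, the smallest that 3 against 3 arrays allow, and 0.3 after adjustment over the 6 probe pairs of Rgs3 and Rgs19 measured on all arrays. In a limma fit of such ratios over 4490 probe pairs of 3086 genes, 0 pairs were called and 244 had an unadjusted p below 0.05. The Rgs3 pair there had a 95% interval of 0.57 to 1.06 for the size of the shift, an unadjusted limma p of 2.5e-04 and an adjusted p of 0.356, or 0.188 with the sort as a block.

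**Figure D2:**
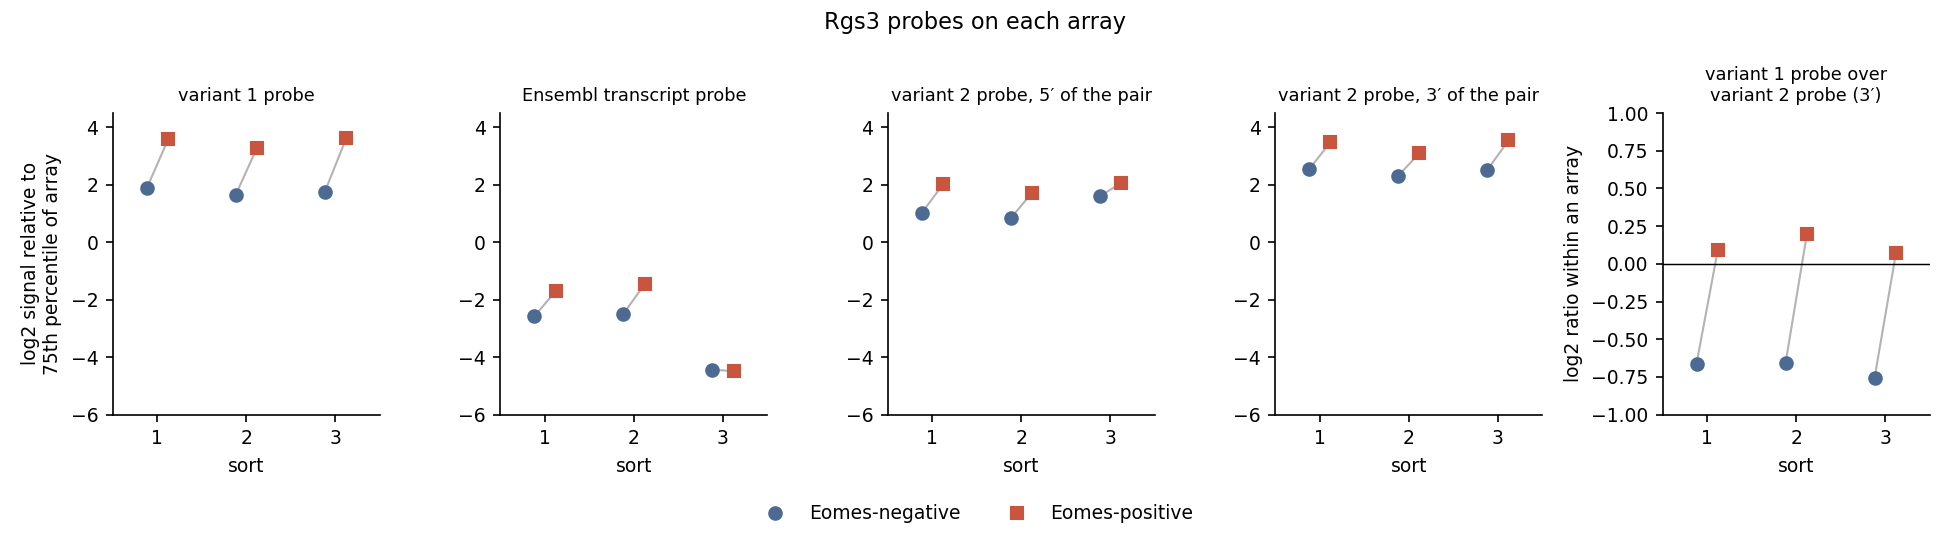
Signal of the 4 Rgs3 probes on each array, in order along the gene (log2 over the array's 75th percentile), and at the right the log2 ratio of the variant 1 probe to the downstream (3′) variant 2 probe within each array, with lines joining the arrays of a sort. The variant 1 probe separates the groups by 1.42 log2 units, and the ratio is higher on the Eomes-positive array of every sort. The 0 of the ratio has no meaning of its own, since probes differ in affinity.

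Rgs16, an R4 member whose transcript is known to be induced on T cell activation and which dampens chemokine-driven migration, had low signal and was higher in all 3 Eomes-positive arrays. It read -2.52, -2.88 and -3.14 in the Eomes-negative arrays of sorts 1 to 3 and -1.02, -1.63 and -2.04 in the Eomes-positive ones. The groups did not overlap, and in both of them sort 1 was the highest and sort 3 the lowest. The difference was 1.28 (SE 0.31, 95% interval 0.52 to 2.05), 2.44-fold, with 1.49, 1.25 and 1.11 in the single sorts, and 1.67 and 1.11 within slides 1 and 3. It was not called by group (limma adjusted p = 0.127) and was called with the sort as a block (0.0143), which is lost again without any 1 sort (0.0577 to 0.0831).

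Several markers that killer cells share with γδ T cells also differed between the groups. The list of natural killer and type 1 innate cell genes summed to 58.5, 135 and 49.4 in the Eomes-negative arrays and 98.8, 142 and 109 in the Eomes-positive ones, with 4 of 12 genes called by limma, all higher. Blocking on the sort, limma called 6 higher and 1 lower, the granule protease gene Gzmb (-1.03, adjusted p = 0.0138). Among the γδ T cell genes, 2 of 11 were called, both lower in the Eomes-positive arrays. These were the γ chain variable segments Tcrg-V6 (-4.02) and Tcrg-V5 (-2.24), which mark different γδ T cell subsets. The part of such a shift in cell makeup in the RGS differences was not tested.

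Rgs1, an R4 member abundant in activated lymphocytes that restrains their exit from and movement within tissues, differed less. It read -0.13, -0.74 and 0.47 in the Eomes-negative arrays and 0.27, -0.20 and 1.00 in the Eomes-positive ones. The groups overlapped, since sort means ranged over 1.20 log2 units, yet the Eomes-positive array was the higher one in every sort, by 0.40, 0.54 and 0.53. A same direction in all 3 sorts occurred in 52.4% of all genes tested. The difference of 0.49 (SE 0.43, 95% interval -0.56 to 1.54) was not called (limma adjusted p = 0.846, or 0.0586 with the sort as a block). The interval with the sort as a block was 0.24 to 0.74 (SE 0.09), before adjustment for the number of genes tested.

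Early response genes are a list of transcription factors, phosphatases and other genes that rise within minutes of stimulation or cell handling. These genes bear on Rgs1, Rgs2 and Rgs16, which are also inducible. Their summed level was 112, 95.4 and 97.5 in the Eomes-negative arrays and 94.5, 84.0 and 80.3 in the Eomes-positive ones, with 0 of 16 called by limma and 4 at an unadjusted p below 0.05. Its genes went both ways, with a median difference of -0.10. Blocking on the sort, limma called Nr4a2 higher (2.54, adjusted p = 0.0201) and Dusp2 (-0.72, adjusted p = 0.0353) and Cd69 (-0.70, adjusted p = 0.0307) lower. The part of stimulation or handling in the levels of Rgs1, Rgs2 and Rgs16 was not tested.

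Rgs2, an R4 member that acts chiefly on Gq, varied between sorts more than between groups. Its brighter probe, at chr1:145848830-145848889, read 2.93, 3.82 and 1.85 in the Eomes-negative arrays of sorts 1 to 3 and 3.02, 3.53 and 1.63 in the Eomes-positive ones. Sort 2 was the highest and sort 3 the lowest in both groups, and sort means ranged over 1.93 log2 units, while 21% of all genes tested had a range above 1. The difference was -0.14 (SE 0.68, 95% interval -1.81 to 1.53, limma adjusted p = 0.993). Blocking on the sort gave an interval of -0.46 to 0.18 (SE 0.12, limma adjusted p = 0.494). The second Rgs2 probe, at chr1:145847227-145847286, was well above background on 4 arrays, with a difference of -0.15.

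Rgs18, an R4 member known mainly from platelets and their precursors, was lower in all 3 Eomes-positive arrays, by amounts that varied between sorts. It read -1.88, -1.48 and -1.89 in the Eomes-negative arrays and -4.62, -2.26 and -3.44 in the Eomes-positive ones. The groups did not overlap, and the spread lay in the Eomes-positive arrays (-3.44 ± 1.18 against -1.75 ± 0.24, SD, n = 3 each). The differences in the single sorts were -2.73, -0.78 and -1.54, with -2.93 within slide 1 and -1.54 within slide 3. Their mean of -1.69 (SE 0.59, 95% interval -3.14 to -0.24), 3.22-fold lower, was not called (limma adjusted p = 0.308, or 0.0931 with the sort as a block).

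Sort 2, in which both Rgs2 and Rgs18 had their highest level of each group, also held the most signal from myeloid and platelet genes. S100a8, a neutrophil and monocyte calprotectin subunit, read 5.64 and 5.89 there and between -2.29 and -1.52 in sorts 1 and 3. Csf1r, the macrophage colony-stimulating factor receptor, read 2.61, 5.14 and 0.22 in the Eomes-negative arrays of sorts 1 to 3 and -0.09, 3.74 and 1.05 in the Eomes-positive ones. Csf1r was lower in the Eomes-positive array of sorts 1 and 2 and higher in that of sort 3.

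Of the platelet list, the chemokine Pf4 was well above background on 3 arrays, and Ppbp, Itga2b, Gp9 and Treml1 on 2 each. All of these read highest in sort 2 within each group. Gp1ba and Gp5, subunits of the platelet receptor for von Willebrand factor, were well above background on none. The list summed to between 0.05 and 0.75. Of the 11 myeloid genes tested, limma called 0 between the groups, and 0 had an unadjusted p below 0.05. With the sort as a block it also called 0. The SE by group was 3.01 for S100a8 and 1.51 for Csf1r, too wide to show that myeloid signal was alike in the groups. The part of such cells in the levels of Rgs2 and Rgs18 was not tested. Without sort 2, the difference of Rgs18 was -2.14 and that of Rgs2 was -0.06.

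**Figure D3:**
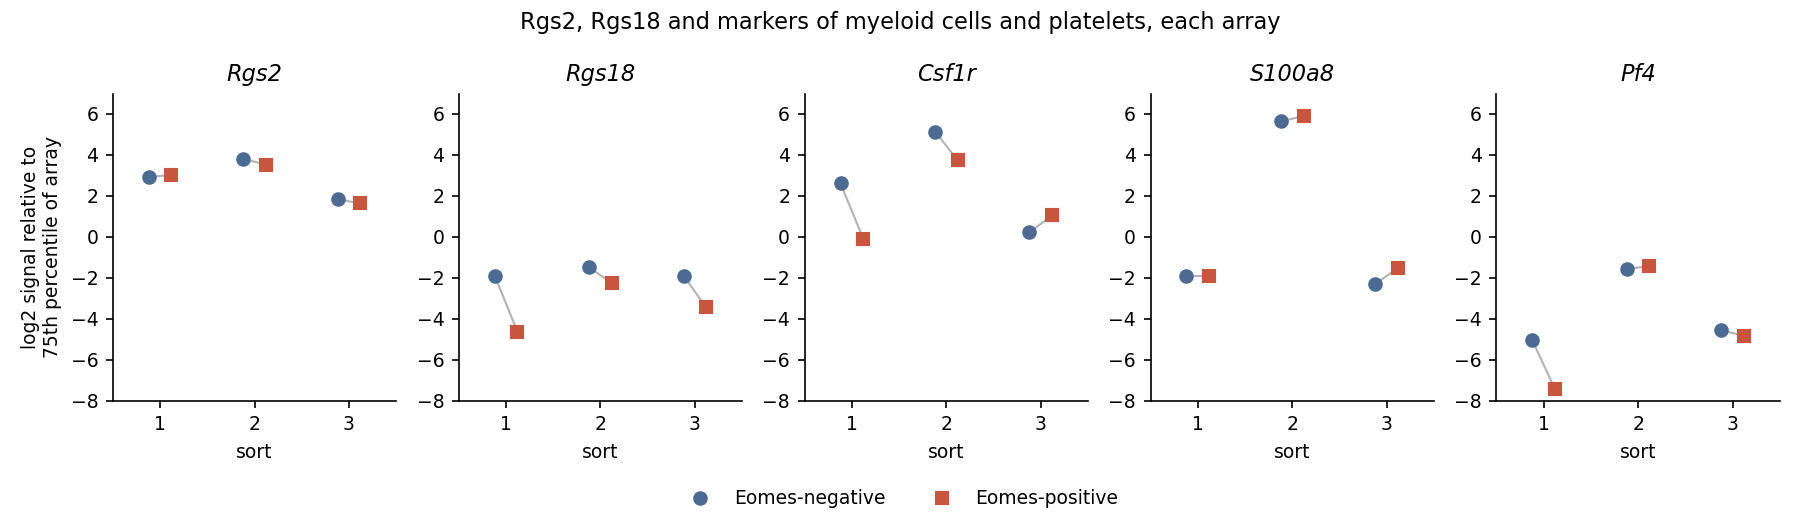
Rgs2, Rgs18, the myeloid genes Csf1r and S100a8 and the platelet gene Pf4 on each array, on 1 common scale (log2 signal over the array's 75th percentile), with lines joining the arrays of a sort. Sort 2 is the highest for all 5 genes, and Pf4 was well above background on 3 of the 6 arrays, so its lowest points are not measured levels.

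Rgs14, an R12 member that also binds Ras-type GTPases and inactive Gi subunits, differed little. It read 2.58, 2.38 and 2.98 in the Eomes-negative arrays and 2.40, 2.28 and 2.64 in the Eomes-positive ones. The groups overlapped, although the Eomes-positive array was the lower one in each sort. The difference was -0.20 (SE 0.21, 95% interval -0.72 to 0.31, limma adjusted p = 0.895).

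Rgs19, also known as GAIP, an RZ member that interacts with Gi3, carried 3 probes within 1 kb of each other, whose differences were alike on average. The brightest read 3.64, 3.43 and 3.25 in the Eomes-negative arrays of sorts 1 to 3 and 3.11, 3.12 and 3.13 in the Eomes-positive ones. The 3 Eomes-positive arrays lay together just below the lowest Eomes-negative one, by 0.12. The difference was -0.32 (SE 0.15, 95% interval -0.70 to 0.05, limma adjusted p = 0.518), and the other 2 probes gave -0.29 and -0.38. The probe with -0.29 had overlapping groups.

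**Figure D4:**
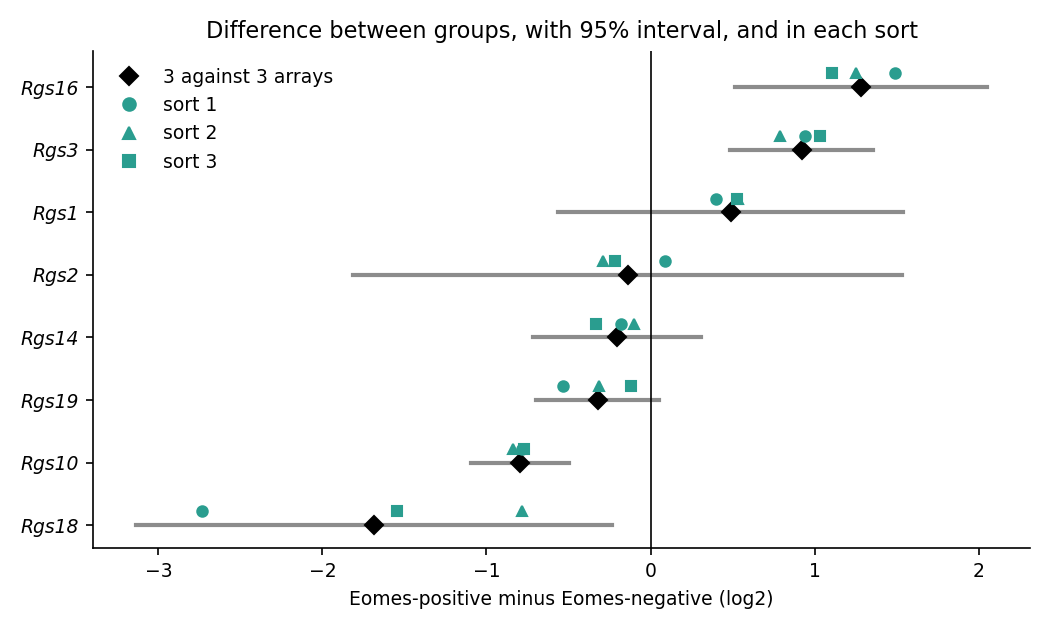
Difference between Eomes-positive and Eomes-negative arrays for each RGS gene (log2), with the limma estimate over 3 against 3 arrays (diamond), its 95% interval (grey line) and the difference within each sort (green symbols). In this fit by group the intervals of Rgs16, Rgs3, Rgs10 and Rgs18 do not reach 0, before adjustment for the number of genes tested. The single sorts of Rgs10 lie closest together.

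An exact permutation test of 3 against 3 arrays, two-sided, gave its smallest possible p of 0.1 for Rgs3, Rgs10, Rgs16, Rgs18 and Rgs19, and 0.5 to 0.8 for Rgs1, Rgs2 and Rgs14. Among the members themselves, the centred profiles of Rgs10 and Rgs19 lay nearest (root mean square distance 0.258) and those of Rgs16 and Rgs18 farthest apart (1.75). This distance is not scaled for a gene's own spread, which was 0.197 for Rgs19, 0.399 for Rgs10, 0.729 for Rgs16 and 1.09 for Rgs18. Rgs3 lay nearest to Rgs16 (0.415).

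Rgs2, Rgs1 and Rgs18 are neighbours on chromosome 1. In the order of protein-coding genes in RefSeq's table for GRCm38.p6, Rgs2, Rgs13, Rgs1, Rgs21 and Rgs18 follow one another with no other between them. In the mm9 coordinates of the files, the probes of Rgs2 and Rgs18 lie 753 kb apart. The estimates in this row differed in sign, with 0.49 for Rgs1, -0.14 for Rgs2 and -1.69 for Rgs18. Limma called none of them, by group or with the sort as a block. The sign of Rgs2 varied between sorts (0.09, -0.29 and -0.21). Rgs13 and Rgs21 were not well above background on any array.

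Eomes binds DNA through its T-box, so the 250 bases upstream of the RefSeq transcription starts were searched for the T-box core AGGTGT on both strands, and for the GC box GGGCGG, the binding motif of Sp1, as a general promoter element. RefSeq's GRCm38.p6 table had 8 starts of 5 members (Rgs2, Rgs3, Rgs10, Rgs16 and Rgs19). The T-box core was found at 1 of these 8, a start of Rgs19, and at 11.8% of all 32851 starts. The GC box was found at 6 of the 8 and at 32.7% of all. Windows are shown for the members that limma called higher with the sort as a block, Rgs3 with 2 starts and Rgs16. A reader can search them for further motifs. Capitals mark GC boxes on either strand, and no window shown holds AGGTGT.
Rgs3, first start, chr4:62559597-62559846, plus strand: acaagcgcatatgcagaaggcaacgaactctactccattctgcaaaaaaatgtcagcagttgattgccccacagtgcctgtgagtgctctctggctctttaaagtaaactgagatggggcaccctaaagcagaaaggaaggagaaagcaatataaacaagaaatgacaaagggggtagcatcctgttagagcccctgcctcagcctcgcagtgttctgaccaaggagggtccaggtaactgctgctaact
Rgs3, second start, chr4:62619422-62619671, plus strand: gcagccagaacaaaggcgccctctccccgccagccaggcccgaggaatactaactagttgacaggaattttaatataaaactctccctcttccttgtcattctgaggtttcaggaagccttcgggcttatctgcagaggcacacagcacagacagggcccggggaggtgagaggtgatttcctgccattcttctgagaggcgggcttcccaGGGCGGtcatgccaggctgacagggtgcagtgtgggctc
Rgs16, chr1:153740103-153740352, plus strand: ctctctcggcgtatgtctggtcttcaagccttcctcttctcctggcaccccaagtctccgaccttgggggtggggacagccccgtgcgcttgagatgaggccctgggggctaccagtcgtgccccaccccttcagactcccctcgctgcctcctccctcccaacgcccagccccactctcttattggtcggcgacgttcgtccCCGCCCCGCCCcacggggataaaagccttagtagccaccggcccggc
The Rgs16 window had 66.4% G and C with 2 GC boxes, against 48.4% with none and 56.8% with 1 at the Rgs3 starts, and the median of all windows was 52.4%. These matches describe letters only.

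Of the 16 other RGS and RGS-related genes listed, 6 were measured on enough arrays to be tested, 9 were not well above background on any array by their brightest probe, and limma called 0, with 2 at an unadjusted p below 0.05. Rgs9, an R7 member best known from photoreceptors and striatum, read -4.87, -5.00 and -2.31 in the Eomes-negative arrays and -1.68, -1.56 and -0.83 in the Eomes-positive ones. The groups did not overlap, and the difference of 2.70 (SE 0.77) was not called by group (limma adjusted p = 0.199) but was with the sort as a block (0.0446). Its other 2 tested probes also lay higher, by 1.99 and 3.08.

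Rgs12, a large R12 relative of Rgs14, read -0.30, 0.08 and -0.73 in the Eomes-negative arrays against 0.75, 0.70 and 0.25 in the Eomes-positive ones. Its difference of 0.89 (limma adjusted p = 0.221, or 0.0343 with the sort as a block) came with no overlap. Of its dimmer probes, one differed by 1.33 with no overlap and was well above background on 5 of 6 arrays, and the other by 0.44 with overlapping groups. Neither was called by limma when the sort was a block (adjusted p = 0.0647 and 0.252). Rgs9 and Rgs12 were thus the other RGS genes that passed with the sort as a block, and both were higher.

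Rgs20, an RZ relative of Rgs19, was bright, between 2.64 and 5.07, through a probe that ends in a CT repeat. Its last 30 bases show this, with the repeat of 29 bases in capitals.
Rgs20, brighter probe, chr1:4900008-4900067, minus strand: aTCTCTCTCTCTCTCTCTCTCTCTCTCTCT
A second Rgs20 probe, at chr1:4900050-4900109 and without the repeat, counted as measured on none of the 6 arrays. The 2 probes overlap in position, so the level of Rgs20 is not given as a measurement of the gene.

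The partners of the RGS proteins were counted in the same fit. Among the α subunits, the direct substrates of RGS proteins, 9 were tested and limma called 1 lower, Gna15, a Gq-class subunit of blood cells. Gna15 read 1.13, 1.34 and 1.26 in the Eomes-negative arrays and 0.06, -0.05 and -0.34 in the Eomes-positive ones, a difference of -1.35 (SE 0.16, limma adjusted p = 0.0158). Gnai2, the main Gi subunit of lymphocytes, differed by -0.02 (SE 0.23).

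Of 12 β and γ subunits tested, limma called 0, with 1 at an unadjusted p below 0.05. The brightest of them, Gng5 and Gnb2, differed by -0.07 and -0.14. The median difference of the list was -0.20.

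Of 15 kinases, arrestins and other regulators tested, 1 of them, Grk3, also under its older symbol, limma called 0 higher and 3 lower. Arrb1, β-arrestin 1, which takes phosphorylated receptors out of signalling, had a difference of -1.32 (limma adjusted p = 0.0394). Ramp3 and Ramp1, which pair with the receptors for calcitonin gene-related peptide and adrenomedullin, had -4.48 and -1.98. Arrb2 differed by -0.51 and was called lower with the sort as a block only (limma adjusted p = 0.0480). Of 16 effectors tested, limma called 1, Arhgef11, which was lower (-1.87, well above background on 5 arrays). Arhgef11 is a RhoA exchange factor with an RGS-like domain of its own.

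Of 29 receptors of lymphocytes tested, most of them for chemoattractants that signal through Gi, limma called 4 higher and 6 lower. The median difference of the 29 was -0.82. Those called lower included Ccr6 (-6.43) and Ccr9 (-4.23), receptors for chemokines of epithelia and gut. Ccr10 was another, but its fitted -6.83 rests on 1 of 3 Eomes-positive arrays well above background. Ccr4 and Ptgdr2 were not well above background on any Eomes-positive array, so they entered the test and this count through the Eomes-negative arrays alone. Ccr4 was at least 23.6-fold lower. For this bound each Eomes-positive array was set to its lowest signal well above background, or to the probe's own signal where that was higher. Those called higher included Cxcr5 (4.18), the receptor of B cell follicles, and S1pr5 (4.18), which guides exit of natural killer cells. The Gs-coupled adenosine receptor Adora2a (0.95) was also among them. Of the receptors 34.5% were thus called, Ccr4 and Ptgdr2 among them, and of the 8 RGS members 12.5%, which is Rgs10 alone. The share of all genes tested was 2.77%, and these shares were not tested against each other.

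**Figure D5:**
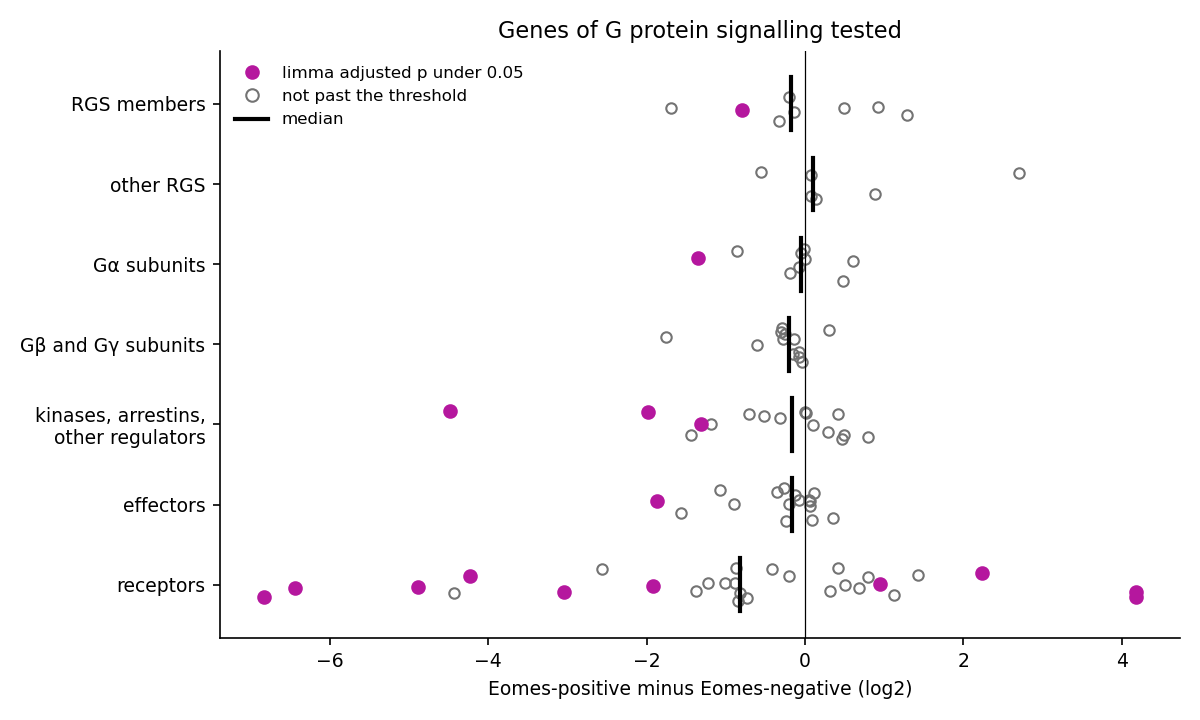
Difference between Eomes-positive and Eomes-negative arrays (log2) of every tested gene of G protein signalling, by list, with genes of limma adjusted p under 0.05 filled and a bar at each list's median. The RGS members span -1.69 to 1.28, and the receptors lie farther out on both sides, though the points of Ccr10, Ccr4 and Ptgdr2 include Eomes-positive arrays not well above background.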

How the data were processed

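Intensities on a linear scale were taken from the scanner files, which per the file headers and the submitters' processing notes come from Agilent Feature Extraction 10.7.3.1, with background subtraction and no normalization between arrays. Other columns used, 0 or 1 flags per spot (detection over background, saturation, outlier), were set by the same software, per the file headers. The authors also deposited intensities scaled to a 75th percentile of 1497 to 1506 on each array, which served as an alternative.

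Spots of a probe (4 each) were averaged as log2 intensity without outlier spots, and the array's 75th percentile was subtracted. A probe counts as measured on an array, or well above background, where 50% or more of its spots carry that flag. Each gene is represented by its brightest probe on average. Genes with 3 or more such arrays of 6 were tested by group at a threshold of 0.05 in R 4.3.3, using limma (3.58.1), statmod (1.5.0) and the package data.table (1.17.8). The script was tested on simulated data. Probes were named through RefSeq accessions (27508) or kept the file's name (11921). Figures used Python 3.11.15, pandas 2.3.3 and matplotlib 3.10.9.

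Arrays of one number come from the same sort of the same pooled spleens, and their deviations from the group means correlated across genes at 0.812, 0.818 and 0.808, so the number pairs them and a block was fitted beside the main result. P-values measure the spread over 3 sorts of pooled mice, and the number of arrays limits every precision. The members, lists and tests were chosen with earlier results of these data known. Named were Eomes, all members and probes, up to 4 called genes of each list with the greatest difference (or the 2 brightest where none was called) and the 3 nearest profiles of each called member. Chosen after their values were seen were Rgs9, Rgs12, Arrb2, Gnai2 as an example, the higher receptors named, the marker genes printed and the alternatives for the Rgs3 variant 1 probe, the probe ratios and the block without 1 sort. Alternatives were the blocks, other scalings and backgrounds, filters, an intensity trend and leaving out arrays. Some genes that these rules cover are not reported here.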

Additional observations from a re-analysis of the deposited data

How the results depend on the processing

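All 8 members kept their direction under the alternatives tried, except Rgs2, which was 0.34 without the Eomes-negative array of sort 2 and 0.41 without the Eomes-positive array of sort 3. With the replicate block, limma called 1310 genes, 3 members and 31 pathway genes (Grk3 counted under 2 symbols), against 454, 1 and 15 in the fit by group, and gave Rgs3 (0.92) and Rgs16 (1.28) as higher. The block changed no other member's call. The slide block (Rgs10 -0.77) and median scaling (Rgs10 -0.70) each left 0 members called. Quantile normalization (Rgs3 0.95) and an intensity trend (Rgs3 0.92) each called 2. With no filter limma called 246 genes, 0 members (Rgs10 -0.80) and 9 pathway genes.

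Leaving out 1 array or sort left 0 to 258 genes, 0 members and 0 to 11 pathway genes, with Rgs10 between -0.81 and -0.78 and the Rgs3 variant 1 probe between 1.67 and 1.83. The ranges for the others were 0.17 to 0.79 for Rgs1, -0.65 to 0.41 for Rgs2, 0.84 to 1.06 for Rgs3, -0.34 to -0.04 for Rgs14, 1.02 to 1.52 for Rgs16, -2.27 to -1.10 for Rgs18 and -0.43 to -0.22 for Rgs19. The replicate block without sort 1, 2 or 3, added after seeing the data, called 142, 452 and 290 genes, 0 members each time (Rgs10 -0.80, -0.78 and -0.81) and 6, 12 and 7 pathway genes. The variant 1 probe of Rgs3 in place of the brightest gave 1.73. The cause of the lost calls was not tested. With no filter the SE of Rgs10 was 0.18, against 0.12 in the fit by group, at the same difference. With normexp background Rgs16 was 0.95 and Rgs18 -1.11, and with the slide block Rgs18 was -2.34, none of them called.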

Other observations

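The genes nearest in profile to Rgs3 and Rgs16, which the rule for named genes did not cover and which were looked at after the values were seen, are given as a description over 6 arrays that share their sorts. Adora2a, an adenosine receptor, lay nearest to Rgs3, with a root mean square distance of 0.051 between centred log2 values against a spread of 0.487 for Rgs3 itself, and had a difference of 0.95. Cd55b (0.054) followed. Bcl6, a transcriptional repressor of follicular helper cells, lay nearest to Rgs16 (0.140), with a difference of 1.30 that limma did not call (adjusted p = 0.0956). Nrp2 followed at 0.141. All were picked from 10559 candidate genes, and no test bears on them.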
